A study of Mus musculus with 6 samples.

Results

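E2f proteins are transcription factors that read short GC-rich motifs in the promoters of genes for DNA replication and cell division. E2f1, E2f2 and E2f3 are the activators, held in check by the retinoblastoma protein until cyclin-dependent kinases phosphorylate it. E2f4 and E2f5 are the canonical repressors, which join the pocket proteins p107 and p130 and, with the MuvB core, form the DREAM complex that silences cell cycle genes in resting cells. E2f6 does not bind pocket proteins and recruits a Polycomb complex, PRC1.6. E2f7 and E2f8 are atypical repressors that bind DNA without a DP partner and damp E2f1 and other targets late in S phase. The 8 genes, E2f1 to E2f8, were found by gene identifier among 55401 genes in a table of raw counts of reads per gene, and all 8 were among the 14661 genes expressed highly enough to be tested. The rule that picks the 8 uses no measured value, though the family was picked with earlier results of these data known.

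The cells were ADC106, a mouse angiosarcoma line (a malignant tumour of vessel-lining cells), transfected with a synthetic microRNA mimic at 12.5 nM and harvested 3 days later for poly(A) RNA sequencing. The 3 control libraries received a mimic labelled NC and carry the genotype label WT, and the 3 treated libraries received an miR-497 mimic and are labelled as miR-497 overexpression. All libraries come from that line, no untransfected cells were analysed here, and the labels do not say whether the replicates were separate cultures, so p-values measure only the spread between these libraries. Totals ran from 25777676 to 36159499 counts. The mitochondrially encoded share of counts was 2.03% to 2.15% in NC libraries and 2.94% to 3.77% in miR-497 libraries, and its part in the results was not tested. All 10 endothelial markers were expressed, and 6 were higher with miR-497 (among them Emcn, log2 fold change 1.03, and Cldn5, 1.02) and 3 lower (Pecam1, -0.52, Eng, -0.39, and Esam, -0.31). Over all tested genes, 23.8% were higher and 26.0% lower. Levels of the 10 markers summed to 9394 to 10114 CPM with NC and 9070 to 9575 CPM with miR-497, where CPM is the count scaled to the size of its library. Of 10 markers of leukocytes, epithelium and fibroblasts, 4 passed the expression filter: Cd68 (log2 fold change 1.08) and Col1a1 (0.84) were higher, Col3a1 (-0.79) was lower and Pdgfra did not pass the threshold. Their sum was 136 to 145 CPM with NC and 179 to 202 CPM with miR-497, while Ptprc and Epcam had at most 13 counts in any library and Cd3e had 0, and their part in the results was not tested.

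A microRNA finds its targets through its seed, bases 2 to 8. The mature sequences, from RefSeq (GRCm38.p6), are shown with the seed in capitals because miR-497 shares it with the miR-15 and miR-16 family, which has long been linked to cell cycle genes; the table names the mouse form miR-497a, and the sequence of the mimic is not given in the sources used here.
mmu-miR-497a-5p: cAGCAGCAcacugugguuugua
mmu-miR-16-5p: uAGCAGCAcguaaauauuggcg
mmu-miR-195a-5p: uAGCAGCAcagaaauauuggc
The letters complementary to that seed, TGCTGCT (8mer when an A follows), or GCTGCTA, were searched in the longest 3' UTR of each E2f gene. E2f3 held 2 matches and E2f7 held 1, and none was found in the longest 3' UTRs of the other 6 genes. Among 12859 tested genes with a 3' UTR, 28.1% held at least 1. The 3 matches are printed 5' to 3' on the gene's strand with the matching letters in capitals (GENCODE M21, GRCm38).
E2f3, chr13:29909224-29909253, minus strand, base 661 of a 3' UTR of 3328 bases: tggtagagttcTGCTGCTcgaagctgttgt
E2f3, chr13:29907376-29907405, minus strand, base 2509, an 8mer: taccattgagtTGCTGCTActaaaagctca
E2f7, chr10:110787193-110787222, plus strand, base 2366 of 2546: tgttcatctatTGCTGCTtgccgcttcgtt
The E2f7 match lies near the far end of its longest 3' UTR and is missing from its shortest annotated one, of 167 bases. A search of the coding sequences, added after the values were seen, found 1 match in E2f4 and 1 in E2f1. Such a match is common in coding sequence, being present in 39.95% of 12885 tested genes.
E2f4, chr8:105300369-105300398, plus strand, base 575 of a coding sequence of 1233 bases, an 8mer: gcctatcgaggTGCTGCTAgtgaacaagga
E2f1, chr2:154569544-154569573, minus strand, base 173 of 1293: cgattctgacgTGCTGCTcttcgccacgcc
These are matches of letters and do not show binding.

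E2f4, E2f7 and E2f3 were lower with miR-497, and no E2f gene was higher. A gene counts as lower or higher where the p of the edgeR quasi-likelihood test, adjusted by Benjamini-Hochberg over all tested genes, is under 0.05. By that rule 26.0% of all genes were lower and 23.8% higher, and 49.8% either way, so 3 lower genes of 8 are read against that broad background. The count of higher E2f genes was also 0 at an unadjusted p under 0.05, with DESeq2 and with limma voom. In 5 of the 8 genes (E2f3, E2f4, E2f6, E2f7 and E2f8) all miR-497 values lay below all NC values, which held for 29.6% of tested genes, and in none did they lie above, which held for 27.8% (57.4% either way). The median log2 fold change (miR-497 over NC) was -0.15 for the 8 genes and -0.02 for all tested genes. The range was -0.52 to 0.06, so no member changed 2-fold.

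**Figure D1:**
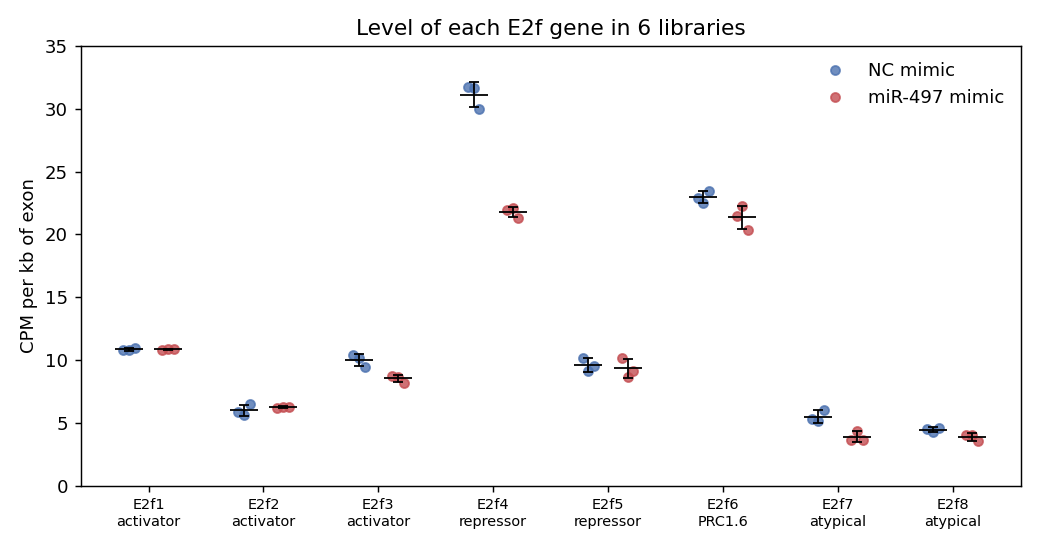
Level of each E2f gene in CPM per kilobase of exon (vertical axis) in 3 NC and 3 miR-497 libraries (points), with the mean and SD (black bars). E2f4 stands at 31.1 with NC and 21.8 with miR-497, while the E2f1 points of both groups sit together at 10.8 to 10.9.

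Among the activators, E2f1 (ENSMUSG00000027490, chr2:154559407-154569892), the family's founding member and a direct target of the retinoblastoma protein, had much the same level in all libraries. Its values were 34.1, 34.0 and 34.5 CPM in NC libraries and 34.2, 34.4 and 34.3 CPM in miR-497 libraries. The groups overlapped, and the 95% interval of the log2 change was -0.14 to 0.14 around an estimate of 0.0031 (edgeR adjusted p = 0.975). E2f2 (ENSMUSG00000018983, chr4:136172394-136196057) had 28.7, 27.5 and 31.6 CPM with NC and 30.2, 30.8 and 30.6 CPM with miR-497. Its groups overlapped as well, with a 95% interval of the log2 change of -0.095 to 0.22 (edgeR adjusted p = 0.511). These intervals bound a change in E2f1 and E2f2 and do not show that their levels were the same.

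E2f3 (ENSMUSG00000016477, chr13:29906575-29986063), the activator with 2 seed matches, had 56.5, 55.2 and 51.5 CPM in NC and 47.5, 47.1 and 44.6 CPM in miR-497 libraries. All miR-497 values lay below all NC values. E2f3 fell by 14.8%, a log2 fold change of -0.23 with an SE of 0.0672 (edgeR adjusted p = 0.0089). With the replicate number as a block together with offsets for GC content and length, the adjusted p was 0.0537. The gene makes a long form, E2f3a, and a shorter one, E2f3b, from different start sites, and counts per gene do not separate them.

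E2f4 (ENSMUSG00000014859, chr8:105297663-105305370), the main E2f of resting cells, had the lowest log2 fold change of the family, close to that of E2f7. E2f7 was the lower of the pair with GC and length offsets (-0.472 against -0.456), with or without the replicate block, and without NC library 1, NC library 2 or miR-497 library 2, so the order of the pair is not settled. Its level was 77.7, 77.7 and 73.5 CPM with NC and 53.9, 54.1 and 52.2 CPM with miR-497. The lowest NC library was thus well above the highest miR-497 library. E2f4 fell by 30.1%, which on the log2 scale is -0.52 with an SE of 0.0606 (edgeR adjusted p = 2.2e-06). No seed match, nor the 6-base core of one, was found in the 682 bases of the E2f4 3' UTR. E2f5 (ENSMUSG00000027552, chr3:14578641-14606309), its closest relative in function, had 18.1, 16.2 and 16.9 CPM with NC and 18.1, 15.4 and 16.3 CPM with miR-497. Those groups overlapped, and the 95% interval of the log2 change was -0.25 to 0.16 (edgeR adjusted p = 0.752). E2f4 and E2f5 share a class, but whether their changes differ from each other was not tested.

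E2f6 (ENSMUSG00000057469, chr12:16810963-16839742) had the most counts of the family, 3055 to 4660 per library. It stood at 130, 128 and 133 CPM with NC and at 122, 126 and 115 CPM with miR-497. Although the groups did not overlap, the difference did not pass the threshold (log2 fold change -0.11, SE 0.0523, edgeR adjusted p = 0.106).

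Of the atypical repressors, E2f7 (ENSMUSG00000020185, chr10:110745439-110787384) fell with miR-497. Its values were 47.9, 46.4 and 54.6 CPM in NC and 32.5, 39.6 and 33.0 CPM in miR-497 libraries. NC library 3 was the highest and miR-497 library 2 was the nearest to the NC range. E2f7 fell by 29.3%, or -0.50 on the log2 scale with an SE of 0.0875 (edgeR adjusted p = 0.00014), and leaving out any 1 library gave values between -0.598 and -0.417. E2f8 (ENSMUSG00000046179, chr7:48866429-48881596), which forms dimers with E2f7, had 24.5, 23.2 and 25.1 CPM with NC and 22.0, 22.2 and 19.3 CPM with miR-497. All miR-497 values were lower, but the log2 fold change of -0.20 (SE 0.0863) missed the threshold (edgeR adjusted p = 0.0684). A gene on the other strand overlaps 11.2% of E2f8 exon sequence, and reads there cannot be assigned if counting ignored strand.

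Levels of different genes can be compared only per length, here as CPM per kilobase of all annotated exon bases. With NC the order was E2f4 (31.1 ± 0.988, SD, n = 3), E2f6 (22.98 ± 0.466), E2f1 (10.8 ± 0.0886), E2f3 (10.02 ± 0.475), E2f5 (9.59 ± 0.543), E2f2 (5.99 ± 0.429), E2f7 (5.51 ± 0.485) and E2f8 (4.46 ± 0.179). Library values of E2f3 and E2f5 overlapped, as did those of E2f2 and E2f7, so those neighbours do not differ beyond their spread. With miR-497, E2f4 (21.8 ± 0.424) and E2f6 (21.4 ± 0.942) overlapped at the top, E2f5 (9.34 ± 0.777) overlapped with E2f3 (8.54 ± 0.293), and E2f7 (3.89 ± 0.439) overlapped with E2f8 (3.89 ± 0.303). The order rests on the length used. Per kilobase of the longest transcript, E2f6 led with 43.1 in NC and 40.1 in miR-497 libraries, ahead of E2f4 at 38.3 and 26.8, and E2f2 was the lowest with NC at 6.18.

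Summed over each class, levels per kilobase showed how the balance of activator and repressor mRNA moved. E2f1, E2f2 and E2f3 together stood at 27.1, 26.6 and 26.9 in NC and 25.8, 25.9 and 25.4 in miR-497 libraries. E2f4 and E2f5 together went from 41.9, 40.8 and 39.5 with NC to 32.2, 30.7 and 30.5 with miR-497. For E2f7 and E2f8 the sums were 9.82, 9.41 and 10.7 against 7.66, 8.47 and 7.20. The change in the mean was -23.6% for the canonical repressors, -21.99% for the atypical ones and -4.43% for the activators, with no overlap between groups in any of the 3. Single genes also did not overlap in 57.4% of all tested genes. Within a class the genes differed: E2f4 changed by -30.1% and E2f5 by -2.80%, E2f7 by -29.3% and E2f8 by -12.8%. Among the activators, E2f3 changed by -14.8%, E2f1 by 0.217% and E2f2 by 4.50%.

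The ratio of the activator sum to that of E2f4, E2f5, E2f7 and E2f8 was 0.530 ± 0.00598 with NC and 0.660 ± 0.0129 with miR-497 (SD, n = 3). E2f6 is in neither sum. It stood at 22.98 ± 0.466 with NC and 21.4 ± 0.942 with miR-497, a change of -7.06%. A ratio that counts E2f6 as a repressor was not computed, and the size of the shift depends on that choice. As a share of the summed level of all E2f genes, E2f6 included, the activators made up 26.7% ± 0.0655 with NC and 29.9% ± 0.455 with miR-497. All 3 miR-497 ratios without E2f6 (0.647 to 0.673) lay above all 3 such NC ratios (0.524 to 0.536). The ratio of E2f1 to E2f4 went from 0.349 ± 0.0141 to 0.499 ± 0.00988. These sums and ratios describe chosen genes and carry no test, they count E2f3 wholly as an activator, and they concern mRNA, not protein.

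**Figure D2:**
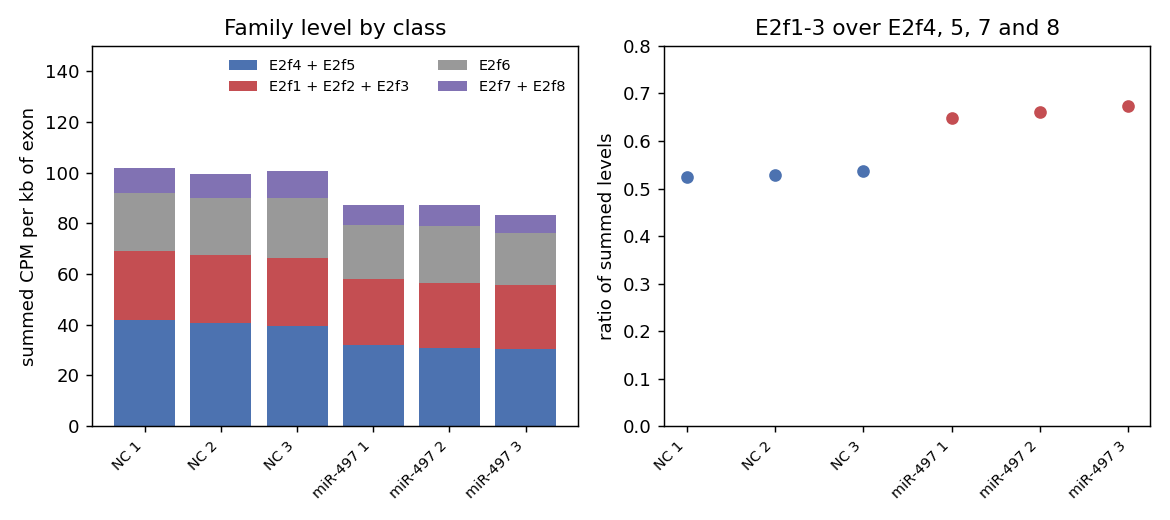
Left, summed level per library (CPM per kilobase of exon) of the 4 E2f classes, stacked from 0. Right, the ratio of summed E2f1, E2f2 and E2f3 to summed E2f4, E2f5, E2f7 and E2f8 in each library, at 0.524 to 0.536 with NC (blue) and 0.647 to 0.673 with miR-497 (red).

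Activator and repressor E2fs other than E2f7 and E2f8 bind DNA as dimers with a DP protein. Tfdp1, the main DP subunit, had 175 ± 6.11 CPM with NC and 174 ± 2.92 CPM with miR-497 (SD, n = 3), and its 95% interval of the log2 change, -0.12 to 0.095, spans 0 (edgeR adjusted p = 0.860). Tfdp2 was higher, from 27.3 ± 1.82 to 34.7 ± 2.79 CPM (log2 fold change 0.35, SE 0.0806, edgeR adjusted p = 0.0018). Tfdp2 was higher although it holds 1 seed match in its longest 3' UTR. Its values with miR-497 all exceeded those with NC, the closest being 31.5 against 29.4 CPM.

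The 3 pocket proteins did not move together. Rbl1, which encodes p107, is itself an E2f target and partners E2f4, had 33.5, 33.3 and 37.1 CPM with NC and 19.5, 19.3 and 17.8 CPM with miR-497 (log2 fold change -0.88, SE 0.0804, edgeR adjusted p = 1.2e-07). Rb1, which encodes the retinoblastoma protein, had 10.05, 8.57 and 7.32 CPM with NC and 10.7, 11.2 and 10.9 CPM with miR-497 (log2 fold change 0.33, SE 0.132, edgeR adjusted p = 0.0448). That call for Rb1 was lost with the replicate block and whenever any library except NC library 1 was left out, and genes on the other strand overlap 14.9% of its exon sequence. Rbl2, which encodes p130, did not pass the threshold (15.6 ± 0.464 and 13.97 ± 1.38 CPM, edgeR adjusted p = 0.212). It holds 1 seed match in its longest 3' UTR, and genes on the other strand overlap 20.97% of its exon sequence.

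Of 7 genes of the MuvB core and its cell cycle partners, 4 were lower and 2 higher, against 26.0% and 23.8% of all tested genes. The lower ones were Mybl2 (B-Myb), which takes over MuvB in S phase, at 42.1 ± 0.762 and 26.2 ± 2.18 CPM (SD, n = 3), Foxm1, the driver of G2/M genes, at 99.998 ± 6.45 and 64.7 ± 6.96 CPM, Lin9 at 49.2 ± 3.91 and 31.8 ± 4.02 CPM, and Lin54, the DNA-binding subunit, at 30.2 ± 1.97 and 25.9 ± 2.38 CPM (edgeR adjusted p = 1.1e-06, 2.8e-06, 2.1e-05 and 0.0373). The higher ones were the core subunits Lin37 (8.88 ± 0.219 and 17.2 ± 1.23 CPM, log2 fold change 0.95, edgeR adjusted p = 1.1e-06) and Rbbp4 (165 ± 7.08 and 254 ± 11.4 CPM, log2 fold change 0.62, edgeR adjusted p = 7.9e-08). The share of Rbbp4 exon sequence that overlaps genes on the other strand is 18.05%. Lin52 did not pass the threshold. The count of lower genes was 3 with the replicate block, with DESeq2, with upper-quartile scaling, with GC and length offsets, and without NC library 2, NC library 3, miR-497 library 1 or miR-497 library 3. No gene of this list held a seed match in its longest 3' UTR.

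**Figure D3:**
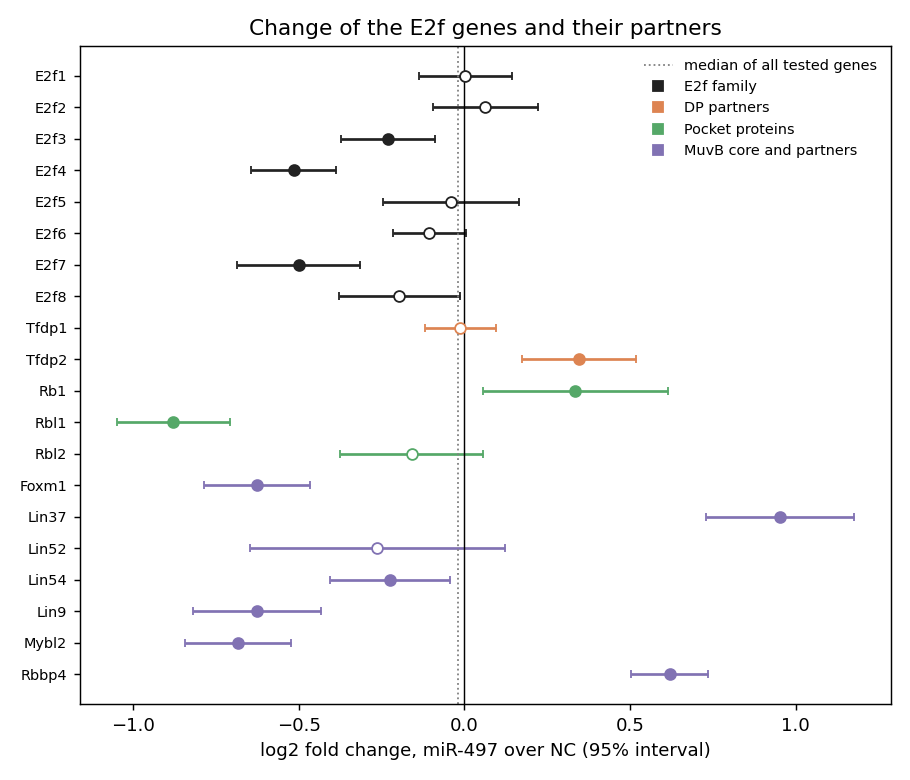
Log2 fold change (miR-497 over NC) with its 95% interval for the 8 E2f genes, the DP partners, the pocket proteins and the MuvB genes. Filled points passed an edgeR adjusted p of 0.05: E2f3, E2f4 and E2f7 lie to the left of 0, with Rbl1 at -0.88 the lowest and Lin37 at 0.95 the highest of the genes drawn.

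PRC1.6 is the Polycomb complex that E2f6 brings to DNA. Of its 12 listed genes, 3 were lower and 2 higher, against 26.0% lower and 23.8% higher over all tested genes. The median log2 fold change of the 12 was -0.0012. Yaf2 (59.8 ± 1.17 and 39.5 ± 4.39 CPM), Wdr5 (73.3 ± 1.90 and 59.2 ± 1.05 CPM) and L3mbtl2 (18.7 ± 0.579 and 14.7 ± 1.66 CPM) were lower, while the ubiquitin ligase Rnf2 (123 ± 4.93 and 173 ± 7.14 CPM) and the histone methyltransferase Ehmt2 (159 ± 10.1 and 195 ± 10.8 CPM) were higher (SD, n = 3, edgeR adjusted p at most 0.00696). Genes on the other strand overlap 17.2% of L3mbtl2 exon sequence. Mga, its DNA-binding scaffold, did not pass the threshold (edgeR adjusted p = 0.811). Germline genes that E2f6 is known to silence had few counts. Stag3, a meiotic cohesin subunit, had 60, 59 and 36 counts with NC and 12, 14 and 13 counts with miR-497 (log2 fold change -1.80, SE 0.385, edgeR adjusted p = 0.00085). Smc1b had 3 to 14 counts per library and did not pass the threshold, Slc25a31 had 2 counts in all, and Tuba3a was listed at 0. A 0 in this table need not mean absence, since Cdt1, Gins2 and Tk1, which dividing cells use, are listed at 0 as well.

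The replication and S-phase genes that E2fs are known to drive were lower in most cases. Of the 41 genes that could be tested among 44 listed, 36 fell and 2 rose, where 26.0% of all tested genes were lower and 23.8% higher. The median log2 fold change was -0.57 against -0.02 for all tested genes. The 3 untested genes were those listed at 0 in all libraries. Rbl1 and Mybl2, counted above among the pocket proteins and the MuvB genes, belong to this list as well. Among the lower genes with the smallest p were Ccne1, the cyclin that opens S phase, from 51.8 ± 2.20 to 13.1 ± 1.96 CPM (log2 fold change -1.99), and the mitotic kinase Cdk1, from 188 ± 2.08 to 103 ± 9.37 CPM (-0.86) (SD, n = 3, edgeR adjusted p = 6e-11 and 5.7e-09). The helicase subunit Mcm6 was among the higher ones, from 261 ± 2.22 to 291 ± 15.8 CPM (edgeR adjusted p = 0.0231). Only 1 gene was called higher with the replicate block, and likewise without NC library 1, NC library 2, miR-497 library 1 or miR-497 library 2.

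Many of these falls were in genes without a seed match. A match in the longest 3' UTR was present in 9 of the 41 genes, among them Ccne1 (2 matches) and Cdk1 (4), and all 9 were lower. Of the 32 without one, 27 were lower, with a median log2 fold change of -0.44. Over all tested genes with a 3' UTR, 40.95% of those with a match and 23.5% of those without one were lower. In such bulk libraries, fewer cells in S phase and less RNA of these genes per cell cannot be told apart.

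Upstream of the pocket proteins, 11 of 14 listed genes for G1 cyclins, their kinases and kinase inhibitors were lower and 1 was higher. Over all tested genes these shares were 26.0% and 23.8%. The inhibitor gene Cdkn2a was not on the list. The median log2 fold change of the 14 was -0.43, and Ccne1 and Ccne2 belong to both this list and the S-phase list. Ccnd3 (432 and 99.4 CPM, log2 fold change -2.12), Ccnd2 (858 and 306 CPM, -1.49) and Ccne1, which code for cyclins that lead to phosphorylation of the retinoblastoma protein, had the smallest p. All 3 hold a seed match in the longest 3' UTR. Of the 7 genes of the list with such a match 6 were lower, and of the 7 without one 5 were lower. Of the 6 listed inhibitor genes, 4 were lower, among them Cdkn2c, at 8.56 and 3.41 CPM (log2 fold change -1.32), and Cdkn2d, at 10.6 and 5.91 CPM (-0.85), with edgeR adjusted p = 2.9e-06 and 8.3e-05. Cdkn1a (263 and 284 CPM, edgeR adjusted p = 0.106) and Cdkn1c (4.37 and 4.48 CPM, edgeR adjusted p = 0.910) did not pass the threshold. Cdk4 was higher by 0.16 on the log2 scale (edgeR adjusted p = 0.0158), a call lost with the replicate block and without NC library 1, and 19.7% of its exon sequence overlaps genes on the other strand. Of 3 genes that control E2f protein breakdown, Ccnf (cyclin F) was lower, from 85.2 ± 5.36 to 49.8 ± 1.59 CPM (log2 fold change -0.77, SE 0.0651, edgeR adjusted p = 4.5e-08), and Skp2 and Fzr1 did not pass the threshold.

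Among 8 apoptosis genes known as E2f1 targets, 6 could be tested. Of these, 3 rose while 0 fell, where 23.8% of all tested genes were higher and 26.0% lower. The median log2 fold change of the 6 was 0.15. At an unadjusted p under 0.05 the count of lower genes was 2, among them Pmaip1 (6.84 and 5.15 CPM), and with limma voom it was 1. Bbc3 (Puma) had 18.1 ± 1.04 CPM with NC and 26.1 ± 2.35 CPM with miR-497 (log2 fold change 0.53, edgeR adjusted p = 0.00012). Apaf1, the apoptosome scaffold, had 107 ± 0.846 and 130 ± 3.41 CPM (0.28, edgeR adjusted p = 0.00021). Bcl2l11 (Bim) had 89.2 ± 2.99 and 109 ± 4.35 CPM (0.29, edgeR adjusted p = 0.00036). Hrk had 1 to 17 counts per library and Trp73 was listed at 0.

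**Figure D4:**
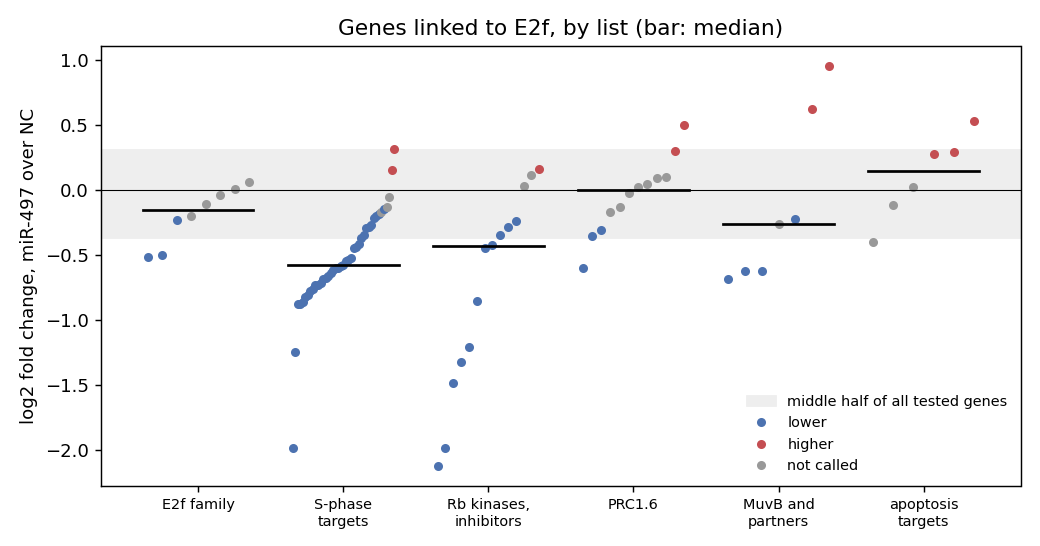
Log2 fold change (miR-497 over NC) of each tested gene in 6 lists, sorted within a list, with the median as a bar and the middle 50% of all tested genes shaded. The S-phase targets centre on -0.57 and the E2f genes on -0.15.

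Several E2f genes are themselves read by E2fs, so the promoters were searched for E2F motifs (TTTCGCGC, TTTGGCGC, TTTCCCGC or TTTGCCGC) and for the cell cycle homology region (CHR) bound by MuvB (TTTGAA or TTCGAA), on both strands, from 250 bases before to 50 after the RefSeq start. The 8 windows of 300 bases at hand belong to E2f1, E2f2, E2f3, E2f6, E2f7 and E2f8, and those of E2f4 and E2f5 were not analysed here. An E2F motif was present in 3 of these 6 genes, E2f2, E2f3 and E2f7, against 4.38% of 10816 tested genes and 42.4% of 33 S-phase targets with a window (and 2.27% of all 32851 windows). A CHR match was found in E2f3, E2f8 and a second window of E2f2 whose start lies 8388 bases inside the gene, against 16.9% of tested genes (and 19.2% of all windows). The E2F matches are shown in capitals on the gene's strand (RefSeq, GRCm38.p6), because E2f3 and E2f7, both lower, carry the same letters. GCGGGAAA is the reverse complement of TTTCCCGC.
E2f3, chr13:29986056-29986085, minus strand, first motif base 11 before the start: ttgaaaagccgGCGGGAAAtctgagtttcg
E2f7, chr10:110745230-110745259, plus strand, 198 before the start: cccgcgtccccGCGGGAAAcgctcccgcgt
E2f2, chr4:136172294-136172323, plus strand, 40 after the start: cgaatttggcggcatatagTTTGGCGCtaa
E2f2 was not called although it holds a match. The RefSeq start used for E2f1 lies 466 bases inside the gene as GENCODE places it, so the lack of these letters in its window says nothing about its usual start. Over 474 tested genes with an E2F motif, 37.1% were lower and 21.3% higher, with a median log2 fold change of -0.10, against 26.7%, 25.1% and -0.02 for 10345 tested genes whose windows lack one. In the S-phase list, 12 of 14 genes with a motif and 17 of 19 without one were lower. A match is a description of the letters and not a bound site.

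Genes whose profile over the 6 libraries lay nearest to each E2f gene were found by the root mean square difference of log2 CPM, each centred on its mean, among 10326 genes with a mean log2 CPM of at least 2. For E2f4 they were Mfsd14a (0.0182) and Pspc1 (0.0191), for E2f7 Atp8a1 (0.0292) and Vcl (0.0309), and for E2f3 Cutc (0.0202) and Zcrb1 (0.0219). For E2f8 they were Tbl1x (0.0202) and Patl1 (0.0235), and for E2f6 Dtnbp1 (0.0151) and Glud1 (0.0179). E2f4 itself varied by 0.259 on that measure, E2f7 by 0.278 and E2f3 by 0.125. E2f1 varied by only 0.00733, less than its distance to its nearest genes, so any gene of steady level lies near it. The nearest genes were Epha2 (0.0131) and Wasl (0.0149) for E2f1, Dip2a (0.00839) and Fam102b (0.0236) for E2f2, which itself varied by 0.0674, and Orai1 (0.0236) and Tmem179b (0.0254) for E2f5, which varied by 0.0853. With so few libraries, genes near a changed E2f gene are those with a similar log2 fold change. For E2f4 (-0.52) these were Mfsd14a (-0.55) and Pspc1 (-0.54). Shared regulation of such genes was not tested.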

How the data were processed

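The authors deposited unnormalized whole-number read counts for each gene in 6 poly(A) libraries (3 per group, groups and replicate numbers from the sample titles). The submitters' processing notes name STAR 2.5.4b, featureCounts, Subread 1.6.1, edgeR 3.32.1 and GRCm38. Annotation release, strand setting and treatment of multiply aligned reads are not given in the sources used here. Symbols, lengths and UTRs came from GENCODE M21, which matched 55141 of 55401 identifiers.

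Counts were tested with edgeR 4.0.16 in R 4.3.3 (filterByExpr, minimum count 10 and minimum total 15, TMM scaling, quasi-likelihood F-test, group as the only term), over all 14661 genes that passed, with Benjamini-Hochberg adjustment. The standard error is the log2 fold change divided by the square root of F. Summaries used Python 3.11.15 and pandas 2.3.3. The test was tried on simulated data. It recovered 66.7% of changes of 0.5 on the log2 scale, 87.7% of changes of 1 and 100% of changes of 2. Changes smaller than 0.5 were not simulated. The simulation changed 66 to 68 genes at each size, far fewer than were called in the data. The E2f genes and the gene lists were chosen with earlier results of these data known. Named were all E2f genes, DP and pocket proteins, called genes of the complexes, the 3 genes with the smallest p in each direction of the other lists, and the 2 nearest profiles; Cdkn1a, Cdkn1c, Cdkn2c, Cdkn2d, Mga, the cell type markers and members that were not called or not tested were named after their values were seen. Some genes that the rule would name are not reported here. Alternatives were other scalings, filters, DESeq2 1.42.0, limma 3.58.1 voom, the replicate block, GC and length offsets, and each library left out.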

Additional observations from a re-analysis of the deposited data

How the results depend on the processing

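E2f4 and E2f7 stayed lower at an edgeR, DESeq2 or voom adjusted p of at most 0.00125 in all 15 alternatives. E2f3 was lower in all but 1: with the replicate block plus GC and length offsets its log2 fold change was -0.199 (edgeR adjusted p = 0.0537; 0.00674 to 0.0537 over its alternatives), which leaves 2 lower E2f genes in place of 3. E2f1 changed sign without a filter (-0.00261) and without NC library 1 (-0.0094). Its range over the fits that left out 1 library was -0.0094 to 0.0202. The largest values for E2f1 came with GC and length offsets, 0.108 (edgeR adjusted p = 0.224), and 0.1082 with the replicate block added (edgeR adjusted p = 0.315). E2f5 changed sign with upper-quartile scaling (0.00522) and without miR-497 library 2 (0.0122), with a range of -0.106 to 0.0122 over those fits. Neither E2f1 nor E2f5 passed the threshold in any alternative.

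With the replicate block alone, no pocket protein was higher (0 in place of 1), 0 Rb kinases or inhibitors were higher in place of 1, and 1 S-phase target was higher in place of 2, also with the offsets. Same-numbered libraries had correlations of -0.119, -0.0351 and -0.133 in their deviations from the group means, so the numbers were not taken as pairs. Higher Rb kinases or inhibitors numbered 2 with upper-quartile scaling and 2 with GC and length offsets. With voom 2 turnover genes and 1 apoptosis gene were lower, against 1 and 0. With a mean count of at least 50, 0 germline genes were lower in place of 1, since Stag3 is then not tested. Leaving out single libraries gave 0 to 1 higher pocket proteins, 0 to 1 higher Rb kinases or inhibitors, 1 to 2 higher S-phase targets and 0 to 1 lower apoptosis genes. Without TMM the log2 ratio of the activator sum was -0.0814 in place of -0.0654. With the shortest 3' UTR 1 E2f gene held a seed match. The cause of these changes was not tested. S-phase targets that were lower ranged from 29 to 36, and lower Rb kinases or inhibitors from 9 to 11. Of all called genes, 47.8% were higher, and 46.4% to 54.4% over the alternatives.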
